A study of Mus musculus with 10 samples.

Results

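Fblim1 and a set of genes for focal adhesion scaffolds were followed in ARG1+ and ARG1- myeloid cells of the inflamed mouse spinal cord. The 9 genes were taken by name from a table of 55487 genes. Fblim1, Bcar3 and Baiap2l1 were chosen by their high counts in the ARG1+ libraries, so their difference between the groups is given as a description and with no test. The other 6, Flna, Zyx, Vasp, Tln1, Vcl and Pxn, were listed as adhesion and filamin partners, and their differences were read from a fit across all genes. All 9 were among the 13740 genes with a level above 1 CPM (counts per 1000000 counts of a library) in at least 3 libraries, and Baiap2l1 passed this filter only through the ARG1+ group, with 5 ARG1+ and 0 ARG1- libraries above 1 CPM.

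The cells came from 5 adult male C57BL/6 mice of the genotype Arg1tm1Lky, a reporter strain whose Arg1-expressing cells are marked by yellow fluorescent protein (YFP). All mice had EAE, an immunization model of multiple sclerosis, and were taken at peak disease. Viable CD3-Ly6G-CD45+CX3CR1+ spinal cord cells were sorted by flow cytometry into 200000 YFP+ cells (ARG1+) and 100000 YFP- cells (ARG1-) for each library. Each of the animals m2, m6, m234, m235 and m236 gave 1 library of each kind, which makes 5 pairs of ARG1+ and ARG1- libraries, and no healthy animals were among the groups. The reporter marks Arg1 expression and not a cell lineage, and the CX3CR1+ gate does not separate monocyte-derived cells from macrophages of the CNS borders or microglia. In such bulk libraries, fewer cells of a type and less RNA per cell cannot be told apart.

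Focal adhesions and the podosomes of macrophages tie integrins in the membrane to actin filaments. Talin and kindlins bind integrin tails and switch them on, vinculin and paxillin join as scaffolds, and zyxin and VASP bring actin assembly to the site. Filamins crosslink actin and also bind integrin tails, where they compete with talin. Fblim1 encodes migfilin, an adaptor that binds filamin at one end, carries LIM domains at the other and can take up VASP through a proline-rich stretch. Bcar3 encodes an SH2 adaptor that binds Cas scaffold proteins, which signal to Rac through Crk and Dock proteins. Baiap2l1 encodes an inverse BAR protein that bends membranes outward and links them to actin regulators.

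Fblim1, Bcar3 and Baiap2l1 share a direction because they were chosen by it. Their upstream sequences, and those of Zyx and Vcl as examples of partners with matching motifs, are shown as a description. They are the 250 bases before transcription starts in RefSeq (build GRCm38.p6), written 5′ to 3′ on the strand of the gene. RefSeq entries were matched by symbol for 8 of the 9 genes, all but Pxn. Capitals mark matches, on either strand, to AP-1 (TGANTCA), TEAD (GGAATG), PU.1 (GAGGAA) and the CArG box bound by SRF. GC boxes (GGGCGG) were searched too and are left in lower case.
Fblim1, distal start, chr4:141606053-141606302, minus strand: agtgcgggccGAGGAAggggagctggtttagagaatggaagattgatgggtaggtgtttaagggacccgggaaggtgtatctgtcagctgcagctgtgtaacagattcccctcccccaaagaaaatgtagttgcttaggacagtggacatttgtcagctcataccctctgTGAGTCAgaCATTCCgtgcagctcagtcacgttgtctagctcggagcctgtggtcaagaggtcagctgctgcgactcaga
Fblim1, internal start, chr4:141599999-141600248, minus strand: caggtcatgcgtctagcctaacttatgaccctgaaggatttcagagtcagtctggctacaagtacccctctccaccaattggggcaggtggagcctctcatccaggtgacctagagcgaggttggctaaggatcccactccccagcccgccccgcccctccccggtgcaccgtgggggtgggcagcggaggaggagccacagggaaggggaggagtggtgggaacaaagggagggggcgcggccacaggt
Bcar3, upstream RefSeq start, chr3:122419507-122419756, plus strand: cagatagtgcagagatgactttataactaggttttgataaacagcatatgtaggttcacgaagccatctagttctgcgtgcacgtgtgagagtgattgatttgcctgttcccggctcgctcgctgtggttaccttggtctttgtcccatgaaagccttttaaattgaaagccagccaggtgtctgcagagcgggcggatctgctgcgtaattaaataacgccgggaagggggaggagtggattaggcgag
Bcar3, downstream RefSeq start, chr3:122483319-122483568, plus strand: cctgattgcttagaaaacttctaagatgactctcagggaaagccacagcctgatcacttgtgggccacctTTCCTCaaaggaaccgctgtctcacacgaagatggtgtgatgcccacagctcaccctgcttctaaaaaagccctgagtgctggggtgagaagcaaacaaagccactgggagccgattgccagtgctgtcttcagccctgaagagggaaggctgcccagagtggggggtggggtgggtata
Baiap2l1, chr5:144358113-144358362, minus strand: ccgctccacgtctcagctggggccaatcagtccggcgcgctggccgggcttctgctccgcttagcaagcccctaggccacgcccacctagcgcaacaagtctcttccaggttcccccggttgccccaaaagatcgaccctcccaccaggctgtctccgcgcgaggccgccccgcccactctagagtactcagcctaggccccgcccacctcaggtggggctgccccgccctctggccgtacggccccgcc
Zyx, chr6:42349578-42349827, plus strand: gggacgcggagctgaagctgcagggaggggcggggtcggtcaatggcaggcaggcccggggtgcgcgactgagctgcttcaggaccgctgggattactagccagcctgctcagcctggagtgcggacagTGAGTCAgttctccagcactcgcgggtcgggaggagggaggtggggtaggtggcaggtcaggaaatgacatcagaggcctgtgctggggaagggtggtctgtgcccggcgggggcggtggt
Vcl, chr14:20929148-20929397, plus strand: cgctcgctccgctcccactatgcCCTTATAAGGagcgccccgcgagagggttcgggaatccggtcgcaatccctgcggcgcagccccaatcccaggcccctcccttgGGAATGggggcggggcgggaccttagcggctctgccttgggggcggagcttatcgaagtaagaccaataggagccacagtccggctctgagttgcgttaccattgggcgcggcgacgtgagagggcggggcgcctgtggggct

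The distal Fblim1 sequence held an AP-1 match 80 to 74 bases before the start and, on the other strand, a TEAD match 71 to 66 bases before it. AP-1 matches were in 6.75% of all 32851 RefSeq windows of this length and TEAD matches in 12.6%. Zyx was the other gene of the set with an AP-1 match, 121 to 115 bases before its start. Vcl was the gene with a CArG box, which 1.47% of all windows held, and it also held a TEAD match, as did Flna 146 to 141 bases before its start. The Baiap2l1 sequence had 4 GC boxes, a GC content of 70.4% and 21 CpG positions, against medians of 52.4% and 6 CpG over all windows, and no match to the other motifs. PU.1 matches, present in 23.3% of windows, were in the distal Fblim1, the downstream Bcar3 and the Tln1 sequences. GC boxes were in 32.7% of windows. They were found at 1 start or more of each of the 3 chosen genes, namely the internal Fblim1 start, the upstream Bcar3 start and the Baiap2l1 start, and also upstream of Flna, Zyx and Vcl. Vasp held none of the 5 motifs. Both Bcar3 starts lie inside the gene as the count table places it, which begins farther upstream. A match describes these letters and does not show a bound site.

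The libraries held 28870482 to 33826355 counts in ARG1+ cells and 8396863 to 35455643 in ARG1- cells, where the ARG1- library of m234 was the smallest and the others had at least 28212174. Arg1, the sorted gene, had means of 813 CPM (SD 174, n = 5) and 18.4 CPM (SD 4.95) in ARG1+ and ARG1- libraries, a log2 fold change of 5.45 (edgeR, adjusted p = 1.07e-07). Over all tested genes, 937 (6.82%) were higher and 845 (6.15%) lower in ARG1+ cells at an FDR below 0.05, and 77 (0.56%) and 122 (0.888%) also passed an absolute log2 fold change of 1. The groups did not overlap for 846 genes (6.16%) that were higher and 714 (5.2%) that were lower, and the median log2 fold change was -0.00222.

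Marker lists of other cells were read in all libraries, and those of dendritic cells, border macrophages and monocytes had several calls. The sort itself removes CD3+ T cells, Ly6G+ neutrophils and CD45- cells such as endothelial and glial cells, so that the lists of these cells check for what remained. Of 10 dendritic cell markers, 7 were tested and 6 were lower in ARG1+ cells, Flt3 (log2 fold change -3.59), Dpp4 (-3.55), Ccl22 (-3.12), Ccl17 (-3.01), Ccr7 (-2.76) and Zbtb46 (-1.65). The other tested marker, Clec9a, was not called (13.9 and 11.7 CPM on average, log2 fold change 0.28) and was the highest of the list in ARG1+ cells. The 10 markers summed to 11 to 28.6 CPM in ARG1+ and 35.4 to 83 CPM in ARG1- libraries. Flt3, Dpp4 and Zbtb46 averaged 0.289, 0.372 and 0.457 CPM in ARG1+ libraries. They passed the filter only through the ARG1- group, where they are high, which limits what their calls show. Xcr1 and Cd209a were below 0.2 CPM on average in both groups. Of 8 border macrophage markers, 4 were tested and 3 were higher, Pf4 (1.88), Mrc1 (1.16) and Ms4a7 (0.50). The list summed to 798 to 1480 CPM against 381 to 886 CPM. Most of this sum was F13a1 (1020 and 594 CPM on average), which edgeR without a block for the animal did not call (adjusted p = 0.0511). The defining Cd163, Lyve1 and Folr2 stayed under 0.2 CPM on average. Of 8 monocyte markers, 4 were lower, among them Plac8 (-2.19), Ccr2 (-1.12) and Vcan (past both limits), and Lyz2 (0.65) was higher, with sums of 14100 to 21500 CPM against 9190 to 16800 CPM. No microglia marker of 8 was called by edgeR without a block for the animal (4 lower at an unadjusted p below 0.05, 0 called by limma-trend and 1 by DESeq2), and 6 were lower with it (751 to 1120 CPM against 808 to 2650 CPM, the highest in the shallow ARG1- library of m234). Ighm (-1.91) was the B cell marker called of 2 tested among 6 listed, and S100a9 (-3.40) the neutrophil marker called of 2 tested among 7 (S100a8 was higher with the block), with sums of 4.33 to 11.7 CPM against 15.9 to 47 CPM and of 18.1 to 30.7 CPM against 12.2 to 31.8 CPM. S100a9, at 0.242 CPM on average in ARG1+ libraries, also passed the filter only through the ARG1- group. None of 7 T and NK cell markers reached the filter (0.964 to 2.83 CPM summed). No call was made by edgeR without the block among 3 tested of 9 platelet markers (5.9 to 15.1 CPM summed, with Gp1bb at 0 in all libraries), among 2 tested of 10 endothelial, mural and fibroblast markers (7.69 to 14.8 CPM), or among 5 tested of 7 oligodendrocyte and astrocyte markers (118 to 159 CPM). At an unadjusted p below 0.05 these lists had 1, 0 and 1 genes, limma-trend called 0 in each, and DESeq2 called 0, 0 and 1. With the block, edgeR called 1, 0 and 1 higher and 0 lower. The part of these cells in the differences below was not tested.

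**Figure D1:**
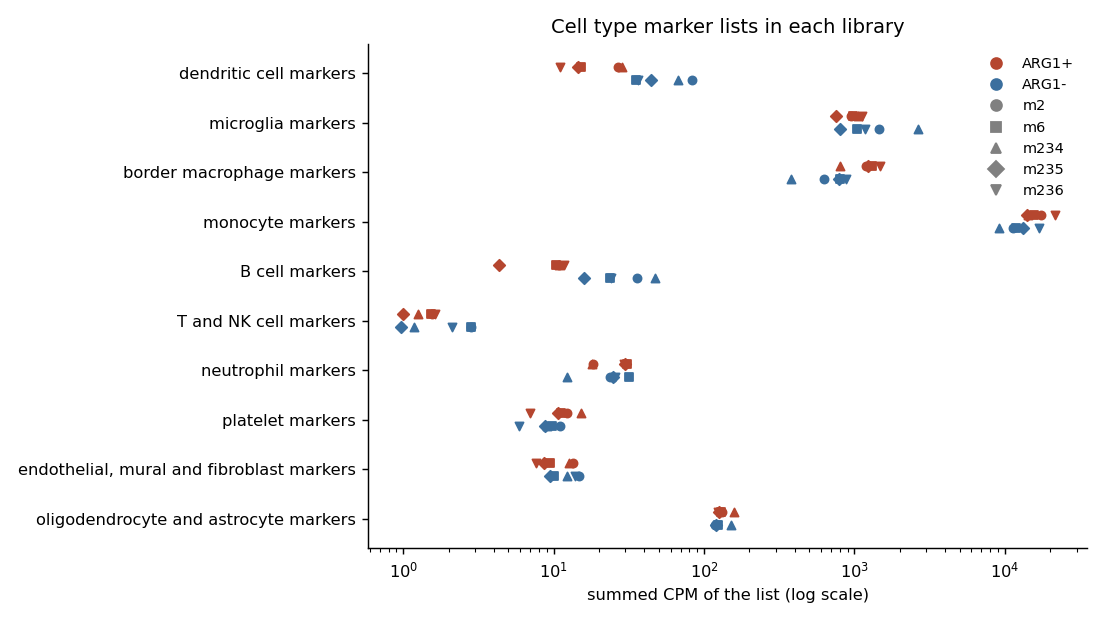
Summed CPM of each cell type marker list (log axis) in the 5 ARG1+ (red) and 5 ARG1- (blue) libraries, with a symbol for each animal. The dendritic cell sums do not overlap between the groups (11 to 28.6 against 35.4 to 83 CPM), and the microglia sum is highest, at 2650 CPM, in the ARG1- library of m234.

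Migfilin was the most abundant transcript per length of the 3 chosen genes. Fblim1 (chr4:141576062-141606096, minus strand, 11 merged exons) stood at 69.2, 72.3, 70.2, 64.1 and 66.8 CPM in the ARG1+ libraries of m2, m6, m234, m235 and m236. In the ARG1- libraries of the same animals, in the same order, it stood at 32.4, 37.2, 37.1, 28.6 and 35.1 CPM. The lowest ARG1+ library thus lay above the highest ARG1- library. The group means were 68.5 ± 3.18 and 34.1 ± 3.62 CPM (SD, n = 5), a log2 fold change of 1.01 (SE 0.0736), and the fold within an animal ran from 1.89 in m234 to 2.24 in m235. Of all tested genes ordered by their log2 fold change, Fblim1 was at place 89. No other annotated gene covers its exons, and 0.0423% of the 50-base stretches of its transcripts recur in transcripts of other genes.

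Bcar3, the Cas-binding adaptor, was lower than Fblim1 per length and had about the same log2 fold change. Bcar3 (chr3:122294136-122530191, plus strand) had 23.2, 16.6, 15.9, 16.7 and 15.6 CPM in the ARG1+ libraries of m2, m6, m234, m235 and m236. Its ARG1- libraries had 10.3, 9.01, 6.81, 7.57 and 7.96 CPM, and the library of m2 was the highest in both groups. The means of 17.6 ± 3.17 and 8.32 ± 1.35 CPM gave a log2 fold change of 1.06 (SE 0.135), with folds of 1.84 to 2.34 within animals and no overlap between the groups. Of its exon bases, 9.36% lie under the antisense gene Gm42836, so that part of its count is uncertain unless the strand was used. Of the 50-base stretches of all its annotated transcripts, 13.7% recur in transcripts of other genes. There are 5536 such stretches against 3311 exon bases, so this share is not a share of its counts.

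Baiap2l1, the inverse BAR protein, was near the limit of detection. Baiap2l1 (chr5:144264526-144358112, minus strand) had 51, 58, 63, 37 and 67 counts in the ARG1+ libraries of m2, m6, m234, m235 and m236, or 1.77, 1.88, 2.03, 1.12 and 2.18 CPM. The ARG1- libraries had 25, 31, 4, 16 and 25 counts, or 0.787, 0.860, 0.470, 0.571 and 0.833 CPM. Every ARG1+ value lay above every ARG1- value, although the ARG1+ library of m235 was close to the highest ARG1- libraries. The means were 1.80 ± 0.409 and 0.704 ± 0.173 CPM, a log2 fold change of 1.28 (SE 0.23). The fold of 4.33 in m234 rests on the 4 counts of the shallow ARG1- library, and the other animals gave folds of 1.96 to 2.62. Of its exon bases, 6.31% lie under genes of the opposite strand. All 3 chosen genes were thus higher in ARG1+ cells without overlap, which 6.16% of all tested genes were, and from that count nothing can be read, since these values chose them.

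**Figure D2:**
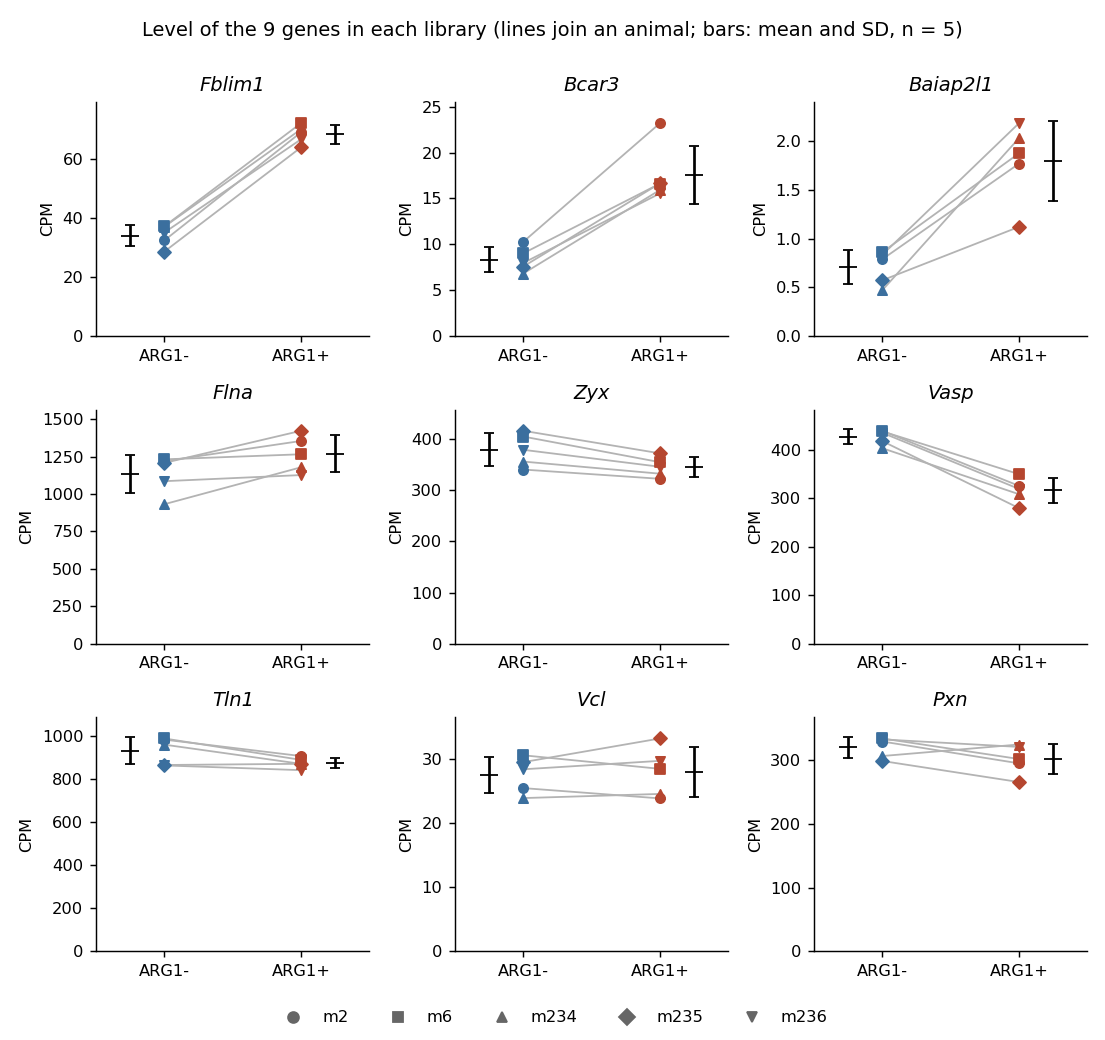
Level in CPM (linear axes from 0) of the 9 genes in each ARG1- (blue) and ARG1+ (red) library. Lines join the libraries of an animal and bars give the mean and SD of 5 libraries. The groups are apart for Fblim1, Bcar3, Baiap2l1 and, in the opposite direction, Vasp (279 to 349 CPM in ARG1+ against 403 to 439 CPM in ARG1-), and overlap for the other 5 genes.

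Among the 6 partners, Vasp alone was called without a block for the animal, and it was lower in ARG1+ cells. Vasp (chr7:19256929-19271817, minus strand), which extends actin filaments and binds both zyxin and migfilin, had 325, 349, 308, 279 and 319 CPM in the ARG1+ libraries of m2, m6, m234, m235 and m236. Its ARG1- libraries had 439, 438, 403, 418 and 435 CPM. All ARG1+ values were below all ARG1- values, and in each of the 5 animals the ARG1+ level was 0.669 to 0.798 times the ARG1- level. The means of 316 ± 25.6 and 427 ± 15.7 CPM differed by a log2 fold change of -0.43 (SE 0.0635, edgeR, adjusted p = 0.00154), and the call held without any library or animal, with adjusted p from 0.00208 to 0.0148. The calls among partners were thus 0 higher and 1 lower of 6 (16.7%), beside 6.82% and 6.15% of all tested genes, and the median log2 fold change of the 6 was -0.0887. At an unadjusted p below 0.05, and by limma-trend or DESeq2, the counts were also 0 and 1. With the animal as a block, Flna was called higher and Zyx lower as well, so that 1 was higher and 2 lower. That fit called 2307 higher and 2519 lower of all 13740 tested genes.

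Flna, the filamin to which migfilin binds, was not called without a block for the animal. Flna (chrX:74223461-74249820, minus strand) had 1355, 1266, 1179, 1423 and 1127 CPM in ARG1+ and 1220, 1232, 932, 1208 and 1086 CPM in ARG1- libraries, in the order m2, m6, m234, m235 and m236. The groups overlapped, while each animal had the higher value in its ARG1+ library, by a fold of 1.03 to 1.26. The log2 fold change was 0.16 (SE 0.0927, adjusted p = 0.268 in edgeR), and with the animal as a block it was 0.16 with an adjusted p of 0.0293.

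Zyx, the LIM protein zyxin, was not called without the block either, and its values within animals lay the other way. Zyx (chr6:42349630-42360213, plus strand) had 322, 355, 332, 372 and 346 CPM in ARG1+ and 340, 405, 356, 416 and 379 CPM in ARG1- libraries of the animals in the same order. The groups overlapped, and the ARG1+ value was the lower one in 5 of 5 animals, at 0.876 to 0.947 times the ARG1- value. The log2 fold change was -0.14 (SE 0.068, adjusted p = 0.203 in edgeR) without the block and -0.13 (adjusted p = 0.0139) with it. Of the exon bases of Zyx, 5.94% lie under the antisense gene Epha1.

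Talin, vinculin and paxillin gave no call with or without the block. Tln1 (chr4:43531519-43562691, minus strand), the main link from integrins to actin, ranged from 843 to 908 CPM in ARG1+ and from 865 to 990 CPM in ARG1- libraries (log2 fold change -0.09, edgeR, adjusted p = 0.34). Pxn (chr5:115506676-115555987, plus strand), a docking scaffold for kinases, ranged from 266 to 325 CPM and from 299 to 334 CPM (log2 fold change -0.09, edgeR, adjusted p = 0.397). Vcl (chr14:20929398-21033676, plus strand), which strengthens the talin link under force, had 23.9 to 33.3 CPM in ARG1+ and 24.0 to 30.6 CPM in ARG1- libraries, with a log2 fold change of 0.01 and an adjusted p of 0.947 in edgeR. The direction for Vcl turned with other scalings and libraries. For all 3 genes the groups overlapped, and animals differed in direction. Of the exon bases of Vcl, 39.7% lie under the antisense gene Ap3m1, so its count is uncertain unless the strand was used.

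**Figure D3:**
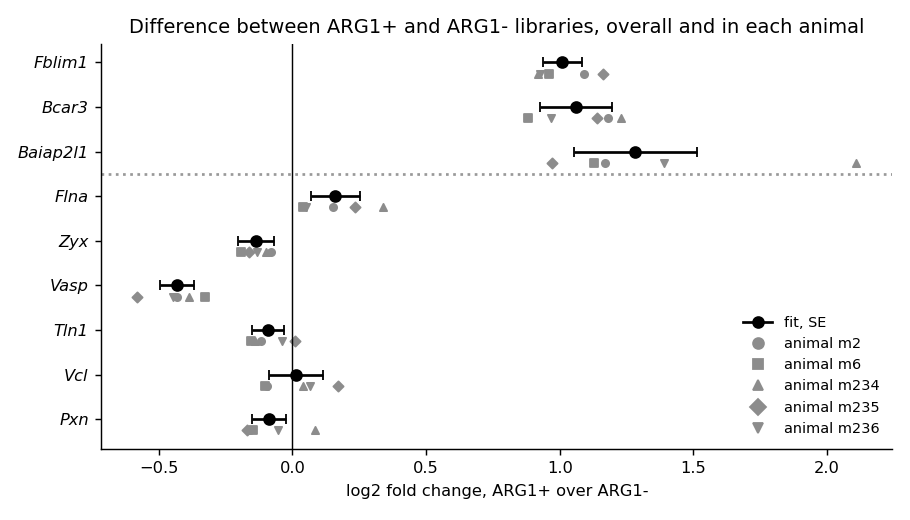
Fitted log2 fold change, ARG1+ over ARG1-, with its SE (black) and the log2 ratio in each animal (grey symbols) for the 9 genes, with the 3 genes chosen for their level above the dotted line. The chosen genes lie at 1.01 to 1.28 with all animals to the right of 0, Vasp lies at -0.43 with all animals to the left, and the other partners lie between -0.14 and 0.16.

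Per length, 5 of the 6 partners were above all 3 chosen genes in both groups, and Vcl was below Fblim1. In ARG1+ cells the order in reads per kilobase of exon and 1000000 counts (RPKM) was Flna (150 ± 14.4), Vasp (143 ± 11.5), Tln1 (105 ± 2.91), Zyx (86.9 ± 4.89), Pxn (63.3 ± 4.96), Fblim1 (20.7 ± 0.96), Vcl (5.32 ± 0.732), Bcar3 (5.31 ± 0.958) and Baiap2l1 (0.553 ± 0.126; SD, n = 5 each). The ranges of neighbours in this order overlapped for Flna and Vasp and for Vcl and Bcar3, and were apart for the other pairs. In ARG1- cells Vasp (193 ± 7.09 RPKM) was above Flna (134 ± 15.1 RPKM) in every library. Fblim1 was at 10.3 ± 1.09 RPKM there, and Vcl (5.24 ± 0.533 RPKM) was above Bcar3 (2.51 ± 0.406 RPKM) without overlap. These levels depend on the exon lengths of the annotation, which were not fitted to the isoforms used by these cells.

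Many of the 9 genes belong to families whose paralogs share a role, and within a family 1 gene usually held most of the transcripts. Flna made up 97.3 to 98.1% of the summed RPKM of the filamins in ARG1+ and 95.3 to 97.2% in ARG1- libraries. Tln1 made up at least 98.5% of the talins in every library. Tln2 had 0.571 to 2.42 CPM in all libraries but the ARG1- libraries of m2 and m236, with 4 and 3.76 CPM, and of m234, with 22.3 CPM, and it was not called (edgeR, adjusted p = 0.166).

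Bcar3 made up 32.0 to 40.5% of the summed RPKM of itself and its paralog Sh2d3c in ARG1- and 49.6 to 65.7% in ARG1+ libraries, a difference that follows from its choice. Sh2d3c itself had 13.6 to 18.9 CPM against 16.2 to 20.9 CPM and was not called (edgeR, adjusted p = 0.328). Of the Cas proteins that Bcar3 can bind, the founding member Bcar1 was below the filter at 0.484 and 0.579 CPM on average. Nedd9, a further Cas protein, had 93.9 to 114 CPM against 75.6 to 104 CPM, with no call in edgeR (adjusted p = 0.117, and 0.0327 with the animal as a block). Cass4 fell from 18.5 to 31.2 CPM in ARG1- to 8.51 to 14.6 CPM in ARG1+ libraries (log2 fold change -1.11, edgeR, adjusted p = 0.00307), and its share of the Cas family from 15.8 to 28.5% to 7.6 to 12.3%.

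Vasp and Enah, both of the Ena/VASP family, were lower in ARG1+ cells, and the third member Evl was not called. Enah had 2.6 to 3.36 CPM against 4.58 to 7.63 CPM (log2 fold change -1.08, edgeR, adjusted p = 0.00131). Evl had 124 to 158 CPM against 129 to 201 CPM (edgeR, adjusted p = 0.457). Vasp kept 70.3 to 75.3% of the summed RPKM of the family in ARG1+ and 70.8 to 80.2% in ARG1- libraries, so its share overlapped between the groups. Of the kindlins, Fermt2, which is known to recruit migfilin to adhesions, was at 0.113 and 0.261 CPM, Fermt1 had no count, and Fermt3, the kindlin of blood cells, was at 266 and 260 CPM (edgeR, adjusted p = 0.765). Baiap2, a paralog of Baiap2l1, held 95.4 to 99.1% of the summed RPKM of its family over all libraries. It had 62 to 84.2 CPM against 46.3 to 70.1 CPM, with an adjusted p of 0.073 in edgeR and of 0.000272 with the block.

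**Figure D4:**
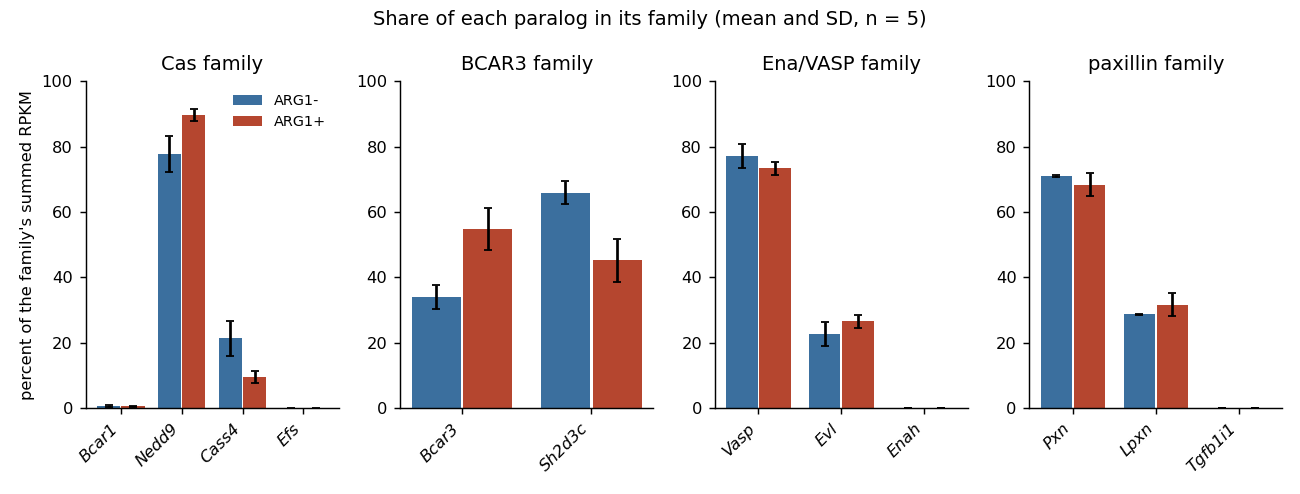
Share of each paralog in the summed RPKM of its family, in percent, as the mean and SD of 5 ARG1- (blue) and 5 ARG1+ (red) libraries. Cass4 falls from 21.4 to 9.68% of the Cas family, and Vasp stays near 77.1 and 73.3% of the Ena/VASP family.

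Over 11 lists of adhesion and actin genes, the calls went both ways. Of 143 listed genes without the 3 chosen ones, 126 were tested, and 11 (8.73%) were higher and 12 (9.52%) lower in ARG1+ cells, beside 6.82% and 6.15% of all tested genes. Past both limits there was 1 gene that was higher and 2 that were lower, where 0.56% and 0.888% of all tested genes were. The groups did not overlap for 8 higher and 10 lower of the 126 genes, beside 6.16% and 5.2% of all tested genes, and the median log2 fold change was -0.018. With the animal as a block, 28 were higher and 34 lower, beside 2307 and 2519 of all 13740 tested genes. The 23 genes called without the block all kept their call.

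Among the 7 tested filamin genes and filamin partners of 10 listed, 2 were higher, Filip1 and Arhgap24, and 1 was lower. Filip1, a filamin-binding protein known to promote filamin breakdown in neurons, had 2.68 to 5.3 CPM in ARG1+ and 0.587 to 2.04 CPM in ARG1- libraries (log2 fold change 1.53, edgeR, adjusted p = 0.00402). Arhgap24, a filamin-bound inhibitor of Rac, had 68.9 to 79 CPM against 48.6 to 58.1 CPM (log2 fold change 0.47, edgeR, adjusted p = 0.000513). Filip1l and Pdlim5 were not called without the block, with which Filip1l was lower (log2 fold change -0.23, edgeR, adjusted p = 0.00228), and Rflna had no count.

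Of 18 tested LIM scaffold genes among 22 listed, Lima1 and Lpp were higher in edgeR without the block. In that fit 0 were lower (3 lower at an unadjusted p below 0.05, 0 by limma-trend and 2 by DESeq2). With the block, 2 genes of this list were higher and 4 lower, beside 2307 and 2519 of all 13740 tested genes. Lima1, which encodes the actin-bundling EPLIN, had 18.5 to 28.4 CPM against 10.7 to 14.6 CPM (log2 fold change 0.83, edgeR, adjusted p = 0.00204). Lpp, a zyxin relative that also binds VASP and alpha-actinin, had 117 to 145 CPM against 86.2 to 121 CPM (log2 fold change 0.34, edgeR, adjusted p = 0.0326). In RPKM, Lpp made up 6.39 to 7.74% of the zyxin family in ARG1+ and 4.34 to 5.55% in ARG1- libraries, while Zyx held 71.3 to 76.0% over all libraries.

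In the module of Cas and BCAR3, 10 of 12 genes were tested, and Dock1 was higher while Cass4 and Elmo1 were lower. Dock1 activates Rac downstream of Crk and had 46.2 to 51.9 CPM against 33.1 to 39.4 CPM (log2 fold change 0.44, edgeR, adjusted p = 0.0011). Elmo1, the partner of Dock proteins, had 58.1 to 63.5 CPM against 64.7 to 85.5 CPM (log2 fold change -0.28, edgeR, adjusted p = 0.0232). Crk had 141 and 138 CPM on average and Dock2, the Dock protein of leukocytes, 239 and 242 CPM, with no call. With the block, 2 genes of this list were higher and 3 lower, beside 2307 and 2519 of all 13740 tested genes.

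Of 6 tested inverse BAR genes and partners among 7 listed, Mtss1 was higher, with 29.6 to 49.9 CPM against 20.1 to 31 CPM (log2 fold change 0.70, edgeR, adjusted p = 0.0146). Mtss1 encodes a membrane-bending relative of Baiap2l1. The actin regulator Wasf2, at 201 and 203 CPM on average, was not called. With the block, 3 genes of this list were higher and 0 lower, beside 2307 and 2519 of all 13740 tested genes. All 7 genes listed for the Ena/VASP module were tested. Besides Vasp and Enah, which were lower, Raph1 was higher, at 40.4 to 53.1 CPM against 32.6 to 38.5 CPM (log2 fold change 0.41, edgeR, adjusted p = 0.00783). Raph1 encodes lamellipodin, which brings Ena/VASP proteins to the leading edge. The actin monomer binder Pfn1 was at 784 and 789 CPM with no call.

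Of 22 tested adhesion kinases and adaptors, 3 were higher and 6 lower at an unadjusted p below 0.05, and limma-trend and DESeq2 each called 0 and 5. In edgeR without the block, 0 were higher, beside 6.82% of all tested genes, and 5 were lower, beside 6.15%. Among them were the Src family kinases Lyn (295 to 328 CPM against 383 to 434 CPM, log2 fold change -0.37, edgeR, adjusted p = 0.00143) and Fyn (11.5 to 26.5 CPM against 22.5 to 52.7 CPM, log2 fold change -0.93). Csk, which phosphorylates and restrains these kinases, had 158 to 180 CPM against 189 to 214 CPM (log2 fold change -0.26), and Pak1, a kinase downstream of Rac, had a log2 fold change of -0.39. Their adjusted p-values in edgeR were 0.0214 for Fyn, 0.0123 for Csk and 0.0333 for Pak1. Ptk2b, the focal adhesion kinase relative of macrophages, had 179 to 209 CPM against 182 to 206 CPM (edgeR, adjusted p = 0.975), and the tensin Tns3 had 408 and 453 CPM on average, with an adjusted p of 0.251 in edgeR and of 0.00974 with the block. With the block, 2 genes of this list were higher and 8 lower, beside 2307 and 2519 of all 13740 tested genes.

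Of 14 tested genes among 18 listed for the module of talin, vinculin, kindlin and ILK, Sharpin, an inhibitor of integrin activation, was lower (log2 fold change -0.17, edgeR, adjusted p = 0.0467), with overlapping groups and no call by limma-trend. Ilk had 109 to 118 CPM against 82.4 to 114 CPM, with an adjusted p of 0.175 in edgeR and of 0.0341 with the block. Of 13 tested integrins among 14, Itgam, which encodes CD11b, was higher at 469 to 634 CPM against 379 to 496 CPM (log2 fold change 0.35, edgeR, adjusted p = 0.0385). Itgal, which encodes CD11a, was lower at 225 to 307 CPM against 315 to 392 CPM (log2 fold change -0.41, edgeR, adjusted p = 0.0104). Their shared beta chain Itgb2 had 1530 to 2290 CPM against 1570 to 1960 CPM, with an adjusted p of 0.197 in edgeR and of 0.0222 with the block. With the block, 5 integrins were higher and 4 lower, and 2 genes of the talin module were higher and 2 lower. Over all 13740 tested genes that fit called 2307 higher and 2519 lower.

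Of 15 tested actin crosslinking and contractile genes among 18, Actn1, an alpha-actinin that bundles actin at adhesions, was higher at 60.9 to 72.6 CPM against 22.8 to 46.6 CPM (log2 fold change 0.75, edgeR, adjusted p = 0.00737). Its paralog Actn4 had 246 and 222 CPM on average and an adjusted p of 0.154 in edgeR, and of 0.01 with the block. Of 17 tested genes among 20 for SRF, its cofactors and targets, the cofactor Mrtfb was higher at 39.9 to 48.4 CPM against 26.5 to 34 CPM (log2 fold change 0.48, edgeR, adjusted p = 0.00338). Srf itself had 55.8 to 62 CPM against 50.3 to 72.7 CPM, and its target Actb had 2040 to 2740 CPM against 2300 to 2790 CPM, with no call for either. Of 13 podosome genes, Gsn, which severs actin filaments, was higher (346 to 391 CPM against 261 to 342 CPM, log2 fold change 0.26, edgeR, adjusted p = 0.0382). In edgeR without the block 0 were lower, while 3 were lower at an unadjusted p below 0.05, 3 by DESeq2 and 0 by limma-trend. With the block, 4 actin crosslinking and contractile genes were higher and 5 lower. In the SRF list 5 were higher and 5 lower, and 2 podosome genes were higher and 4 lower. These counts stand beside 2307 and 2519 of all 13740 tested genes. The plastin Lcp1, at 1200 and 1230 CPM on average, was not called.

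Beside the lower calls of Vasp, Enah, Cass4, Fyn and Itgal, the summed dendritic cell markers were at 11 to 28.6 CPM in ARG1+ and 35.4 to 83 CPM in ARG1- libraries. Beside the higher calls, the border macrophage sum, most of it F13a1, was at 798 to 1480 CPM against 381 to 886 CPM. Their part in these differences was not tested.

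**Figure D5:**
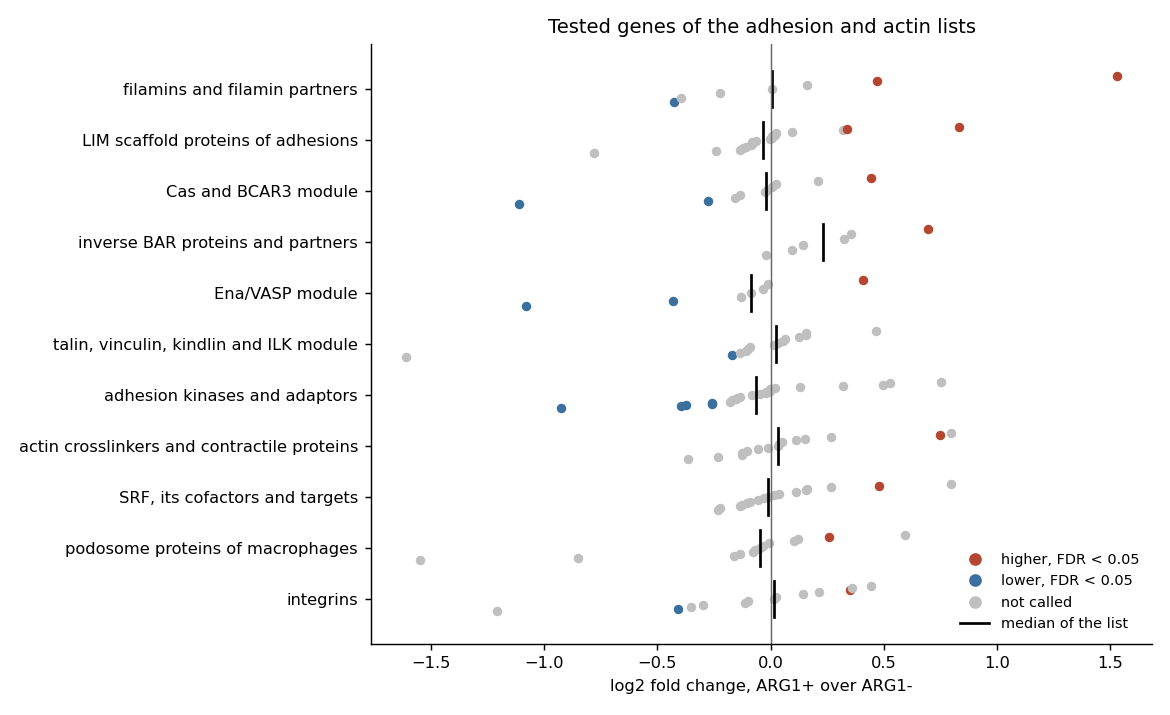
Log2 fold change, ARG1+ over ARG1-, of every tested gene of the 11 lists, without the 3 chosen genes. Red and blue points are called higher and lower at an FDR below 0.05 in edgeR, grey points are not called, and black bars are medians. Filip1 (1.53) lies farthest to the right, and the adhesion kinase calls all lie to the left of 0.

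The genes whose level over the 10 libraries was most like that of Fblim1 were Pld3 (Pearson r of log2(CPM + 1) 0.99), Rnf150 (0.974), Tmem94 (0.973), Naglu (0.972) and Appl2 (0.97). Pld3 and Naglu encode lysosomal enzymes, and Appl2 an endosomal adaptor. The libraries fall into the groups that chose Fblim1, so that these values mainly repeat the difference between the groups, and 173 genes had r above 0.9. Arg1 reached 0.966, Bcar3 0.911 and Baiap2l1 0.906. After the group means were taken out, r was 0.767 for Pld3, 0.637 for Rnf150, 0.59 for Tmem94, 0.674 for Naglu and 0.754 for Appl2. These genes were picked by their r with Fblim1 over the same libraries, and that choice raises these values too. After the same step r was -0.0112 for Bcar3, 0.307 for Baiap2l1 and -0.274 for Arg1. Those genes were not picked by r, so the values of the picked genes cannot be compared with theirs. The values are descriptions over 10 libraries, which share animals and depth, and carry no p.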

How the data were processed

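RNA was sequenced from sorted ARG1+ and ARG1- spinal cord cells of the same 5 mice. The authors aligned 50-base single-end reads from strand-marking libraries to GRCm38 with STAR (version 2.7.10b in the submitters' processing notes) and the basic Ensembl annotation, and counted reads on genes with summarizeOverlaps in Union mode, which leaves out reads over more than 1 gene. The deposited values are whole-number counts without normalization, with the use of strand not given in the sources used here. All per-sample columns were used.

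Genes above 1 CPM in at least 3 libraries were fitted with edgeR 4.0.16 (quasi-likelihood, TMM, R 4.3.3) at a Benjamini-Hochberg FDR below 0.05, alone and with an absolute log2 fold change above 1. Printed CPM use TMM library sizes. With 1 CPM worth 8.4 counts in the shallowest library and at least 28.2 in the others, low genes are least certain. The authors' methods name limma-trend, run here as an alternative (limma 3.58.1) beside DESeq2 1.42.0, other scalings and filters, an animal block, and fits that dropped each library or animal in turn. Residuals of libraries from the same animal correlated at 0.415 to 0.706 across genes, against at most 0.0838 between animals, so the labels' animals pair the libraries. Counts of libraries in a group differed by more than sampling allows (chi-square over degrees of freedom at least 17.8). The tests were tried on simulated counts. Exon lengths, overlaps and shared stretches came from a GENCODE annotation of the same build, with 55141 of 55487 identifiers matched, and upstream sequences from RefSeq.

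The members and lists were chosen with earlier results of these data known. Named are the 9 genes, Arg1, from each list the gene with the highest CPM, all genes past both limits and the largest called rise and fall, and the 5 genes most like Fblim1. A few genes it would name are not reported here. Paralogs and other list genes were named after their values were seen.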

Additional observations from a re-analysis of the deposited data

Results flagged for a closer look

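In the ARG1+ group, the Bcar3 level of m2 (23.2 CPM) stood apart from the other 4 libraries, which lay between 15.6 and 16.7 CPM, with a gap of 0.857 of the range of the group. Without this library the log2 fold change of Bcar3 was 0.94, against 1.06 with all libraries. In the ARG1- group, the Arg1 level of m2 (26.9 CPM) stood apart from the next highest library at 17.9 CPM, with a gap of 0.718 of the range. Dixon's limit for 5 samples is 0.71, and chance marks about 1 in 20 groups. Of 20 groups tested, for 9 genes and Arg1, 2 passed it.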

How the results depend on the processing

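Over 22 alternatives, the log2 fold changes of Fblim1, Bcar3 and Baiap2l1 stayed within 0.96 to 1.05, 0.94 to 1.15 and 1.17 to 1.41, and the calls of Vasp and Arg1 held in all. The animal as a replicate block made Flna (log2 fold change 0.16, adjusted p = 0.0293) and Zyx (-0.13, adjusted p = 0.0139) pass in edgeR, so that 1 partner was called higher and 2 lower. It changed no other partner's call. The block called 2307 genes higher and 2519 lower over all genes, 213 of the lower ones past both limits, and 28 and 34 of the list genes. Of all genes, DESeq2 called 1307 lower (186 past both limits) and total counts without TMM 1282, a scaling that moved the median of all genes to -0.0427. Without a filter, 190 were lower past both limits. Both DESeq2 and total counts called 19 list genes lower. With 1 library or animal left out, 360 to 1037 genes were higher, 284 to 911 lower and 68 to 168 lower past both limits, and 5 to 15 list genes were lower. The lowest counts came without m6 or m2 (both libraries), where 5 and 6 list genes were lower, in fits of 8 libraries. Over all genes, 500 were higher and 412 lower without m236, 572 and 481 without the ARG1+ library of m2, and 518 and 561 were lower without the ARG1+ library of m6 and the ARG1- library of m2. Vcl turned direction with total counts (-0.0269) and ran from -0.0563 to 0.0657 with libraries left out, never with a call. Of the 5 genes most like Fblim1, 2 remained after animal means were taken out. With 1 library of each kind for each animal, these residuals mainly repeat the difference between the groups (r 0.996 for Arg1, -0.991 for Vasp). This count therefore cannot show how stable the likeness is.

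The depth of the ARG1- library of m234 limits low genes such as Baiap2l1, which had 4 counts there. The causes of the other shifts were not tested.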
